A study of Mus musculus with 12 samples.

Results

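Autosomal windows in which the histone mark H3K27me3 was nearly absent from mouse hepatocytes at both ages studied are described here. They were selected on the measured cover itself. Chromosomes 1 to 19 were divided into windows of 100 kb, and a window was taken where the deposited domains covered 5% or less of it at each age and at least 1 kb of it at one age or both. The last condition leaves out windows with no domain in either list, of which there were 192 and which may be gaps in the assembled sequence. The rule found 1964 windows, named low windows below, among 23937 autosomal windows that held a domain in either list, which is 8.2%. They add up to 196.4 Mb.

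The study profiled H3K27me3 by ChIP-seq (sequencing of DNA recovered by chromatin immunoprecipitation) in wild-type mouse hepatocytes, the main metabolic cells of the liver, obtained by liver perfusion and low-speed centrifugation. At postnatal day 14 (P14) it had 4 ChIP and 4 input samples, with 2 males and 2 females in each set, and at 2 months (M2) it had 2 ChIP and 2 input samples of unknown sex, all described as re-analyses of samples deposited elsewhere. All samples were wild type, and the same antibody was named for the ChIP samples of both ages. The deposited data used here were 1 list of domains per age, each read as pooled over its samples, with positions on the mm9 build and on a grid of 1 kb. There is thus no replicate of either list, no test was run, and age cannot be told apart from the origin, the number and the recorded sexes of the samples. Hepatocyte markers could not be checked, since the lists hold no expression values. Genes and base sequences were not placed in the windows, because no positions or sequence on mm9 were used here.

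H3K27me3 is laid down by Polycomb repressive complex 2, whose catalytic subunit is EZH1 or EZH2, and is known for keeping developmental regulators and genes of other cell types silent. It is typically broad over silent, CpG-rich regulators and absent from the bodies of actively transcribed genes, where methylation of lysine 36 on the same histone tail hinders the complex. It is also often sparse in heterochromatin that carries methylation of lysine 9 of histone H3. A window free of H3K27me3 can therefore belong to very different kinds of chromatin, and the domain lists alone do not say to which.

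The low windows were not equally empty at the 2 ages. P14 domains covered 6415 kb of them (3.27%) and M2 domains 2349 kb (1.20%), which gives a ratio of M2 to P14 of 0.366. Over all 23937 windows the order was the opposite. There P14 domains covered 22.6% of the sequence and M2 domains 29.0%, for a ratio of 1.29. Both values were used to choose the windows, so these levels describe the selection and support nothing by themselves. The ratio stayed below 1 with other settings, but it was 0.678 where both lists had to cover at least 1 kb, and 0.185 with an M2 list shortened to the P14 length by dropping its shortest domains. The median low window had 3% of its length covered at P14 and 1% at M2. The mean cover was 3.27% ± 1.36 at P14 and 1.20% ± 1.51 at M2 (SD over 1964 windows, which are not replicates). The low windows held 1.19% of the autosomal length covered at P14 and 0.338% of that covered at M2.

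At M2 the most common state of a low window was to have no domain at all. This was so in 981 of 1964 windows (50.0%), whereas only 31 (1.58%) had no P14 domain. The counts at M2 then fell from 313 windows at 1% and 293 at 2% to 152 at 3%, 131 at 4% and 94 at 5%. At P14 they rose instead, from 209 windows at 1% and 354 at 2% to 426 at 3% and 500 at 4%, with 444 at 5%. M2 thus had no domain in 981 windows and at least 1 marked kilobase in the others, while nearly all windows had a few kilobases marked at P14.

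**Figure D1:**
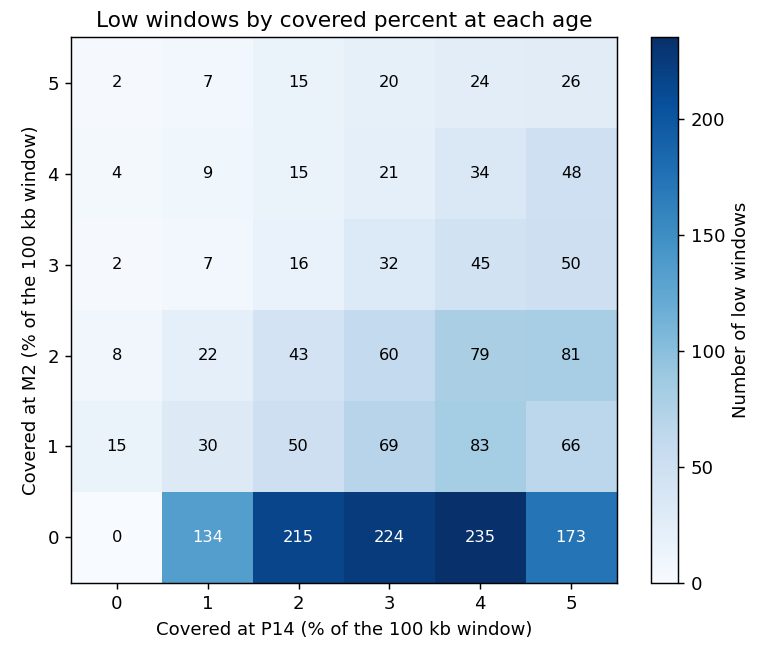
Number of low windows for each pair of covered percentages, with P14 on the horizontal axis, M2 on the vertical axis and the count printed in each cell. The row with no M2 domain holds the highest counts, up to 235 windows at 4% in P14, while the column with no P14 domain holds 31 windows in all.

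Direct comparison of each window gave the same order. P14 had the higher cover in 1612 low windows (82.1%), against 33.7% of all autosomal windows. M2 had the higher cover in 187 (9.52%), against 63.2% of all windows, and the lists were equal in 165 (8.40%), against 3.13% of all. The median difference, M2 minus P14, was -2 percentage points. It was 1 point or less in either direction in 600 windows. Since the rule limits both lists to 5%, differences can only run from -5 to 5 points, and nothing is read from these shares.

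At the edges of the range, 173 windows had 5% at P14 and none at M2. The first of them in genome order were chr1:74300001-74400000, chr1:91500001-91600000 and its neighbour chr1:91600001-91700000. Only 2 windows showed the reverse, with no P14 domain and 5% at M2, namely chr3:94800001-94900000 and chr11:86900001-87000000. A further 26 windows stood at 5% in both lists. The first 5 of these were chr1:50600001-50700000, chr1:107500001-107600000, chr1:127700001-127800000, chr1:155100001-155200000 and chr2:65100001-65200000. Equal cover did not mean equal position there, since the stretch marked at both ages measured 1 kb, 4 kb, 0 kb, 2 kb and 1 kb in those 5 windows, in the same order.

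The limit of 5% lies in a smooth part of the distribution. By the list with the higher cover, 525 windows stood at 4% and 512 at 5%, just inside, and 515 at 6% and 502 at 7%, just outside. Windows at 5% had medians of 5% at P14 and 2% at M2, and those at 6% had 6% and 2%. Windows on either side of the limit therefore differed little. The share of low windows follows the limit directly, with 3.87% of windows at a limit of 3% and 18.4% at a limit of 10%. It was 3.98% where both lists had to cover at least 1 kb and 4.26% in windows of 200 kb.

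Low cover at one age was more common in the M2 list. Of all 23937 windows, 18.1% (4330) had 5% or less at M2 and 11.2% (2672) had 5% or less at P14. The 1964 windows that were low at both ages made up 73.5% of the P14 group and 45.4% of the M2 group. The spread of cover over all windows was wider at M2 in both directions. The 5th percentile was 3% at P14 and 0% at M2, the 25th was 9% and 10%, the median 16% and 26%, the 75th 30% and 42%, and the 95th 64% and 76%. A complete lack of M2 domains was seen in 1548 windows (6.47%), of which 981 (63.4%) were low windows. The corresponding count for P14 was 36, of which 31 were low windows.

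Windows that were low at only one age did not usually reach a high cover at the other. In the 2366 windows that were low at M2 but above 5% at P14, P14 cover reached 20% or more in 110 and 30% or more in 24, with a highest value of 49%. In the 708 windows that were low at P14 but above 5% at M2, M2 cover reached 20% or more in 268 and 30% or more in 69, with a highest value of 73%. Windows with 20% or more in the other list were thus more numerous in the group low at P14, although the group that was low at M2 was the larger one. Over all windows the median cover was 16% at P14 and 26% at M2, so 20% or more was also more common at M2 in general. No change with age is read from these counts.

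The next comparison asked whether the few marked kilobases of the low windows were the same kilobases at both ages. Mostly they did not. Of the P14 length in low windows, 5.81% was also covered at M2, and of the M2 length 15.9% was also covered at P14, 373 kb in both cases. Over all windows the shares were 58.0% and 45.1%. The first share was 3.16% with a limit of 3% and 12.1% with a limit of 10%, 2.75% in windows of 50 kb, 2.98% with the shortened M2 list, and 11.1% and 10.7% where both lists had to be present or domains of 1 kb were left out. For scale, P14 domains covered 3.27% of all sequence in the low windows and M2 domains 1.20%, so each list was denser where the other one was marked than in the low windows as a whole. P14 alone covered 6042 kb and M2 alone 1976 kb.

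Shared kilobases were found in 260 low windows (13.2%), against 85.1% of all autosomal windows. Of these, 175 held a single shared kilobase, 64 held 2 kb, 14 held 3 kb and 7 held 4 kb. Of the 952 low windows with domains in both lists, 692 (72.7%) had no kilobase in common, against 8.86% (1981 of 22353) of all autosomal windows with domains in both lists. Sparse cover fixes part of this contrast. The share rose steadily with the density of the mark. Windows whose higher list covered 6% to 10% shared 14.3% of the P14 length and 26.0% of the M2 length. In windows at 71% to 100% the shares were 88.3% and 74.1%, where M2 domains covered 81.4% of the sequence in any case.

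The ratio of covered length also changed along this scale. It was 0.366 in the low windows, 0.548 at 6% to 10% and 0.976 at 11% to 20%. It then reached 1.49 at 21% to 40%, and was 1.36 at 41% to 70% and 1.19 at 71% to 100%. The list with more mark was therefore P14 in sparse windows and M2 in windows above 20%. The classes were cut on the higher of the same values that form the ratio, and the spread of cover was wider at M2. This turn is thus not independent of how the classes were made, and nothing is read from it.

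**Figure D2:**
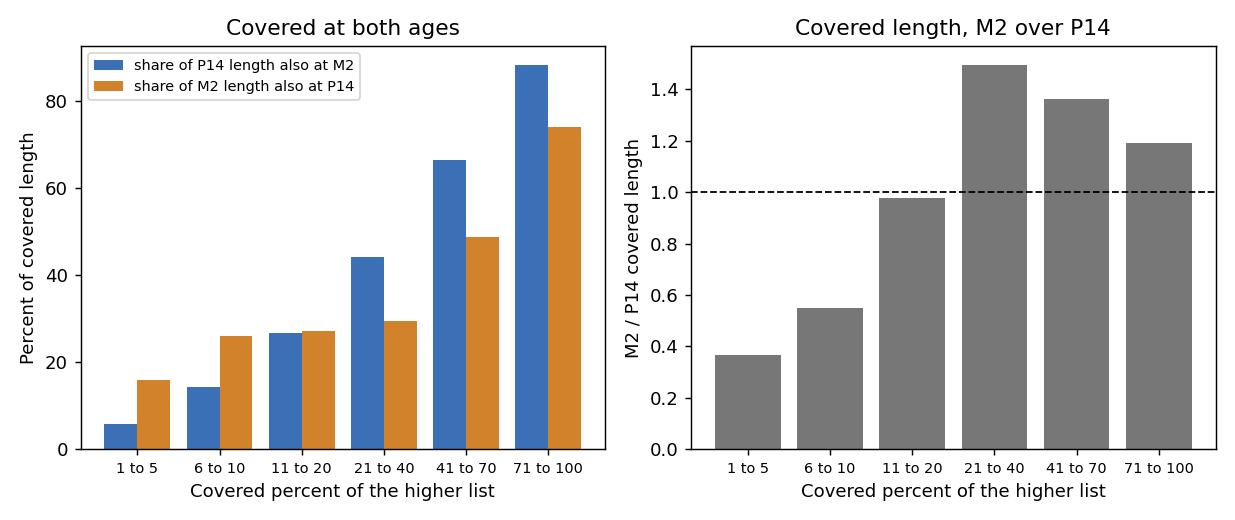
Left, share of the covered length of each list that is also covered at the other age, and right, M2 covered length divided by P14 covered length, both by the covered percent of the list with the higher cover. The low windows are the class 1 to 5, with shares of 5.81% and 15.9% and a ratio of 0.366, below the dashed line of equal length at 1.

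The stretches marked at both ages were short. There were 284 in low windows, 215 of 1 kb, 54 of 2 kb, 10 of 3 kb and 5 of 4 kb. The 5 longest were chr4:117600001-117604000, chr6:88795001-88799000, chr10:84195001-84199000, chr11:77686001-77690000 and chr15:80978001-80982000. In each of these windows 1 compact site made up most of the cover at both ages. On chromosome 6 the P14 domain measured 4 kb and the M2 domain 5 kb, in a window with 5% at both ages, so nearly all of the mark in that 100 kb was this one site. On chromosome 15 the domains measured 5 kb at P14 and 4 kb at M2, and on chromosome 11 they measured 4 kb and 5 kb. The domains on chromosome 4 were longer, 11 kb at P14 and 8 kb at M2, because they continued across the edge of the window. On chromosome 10 the M2 domain of 9 kb likewise exceeded the 5% that the window itself held.

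The next 5 shared stretches measured 3 kb each, at chr2:152195001-152198000, chr2:165600001-165603000, chr4:133156001-133159000, chr4:145593001-145596000 and chr5:139800001-139803000. On chromosome 4 at 133156001 and at 145593001 the P14 and M2 domains were both 3 kb long. The latter window had 5% in both lists. At the first chromosome 2 site the P14 domain measured 3 kb and the M2 domain 4 kb, and at the second they measured 3 kb and 9 kb.

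Marked sites of the lists also lay farther apart than over the autosomes. From a P14-marked kilobase in a low window the nearest M2-marked kilobase was 37 kb away in the median, against 0 kb for all autosomal P14 cover. It lay within 5 kb for 15.7% and more than 50 kb away for 38.8%, against 88.6% and 1.44% over the autosomes. In the other direction the median distance was 6 kb, against 1 kb for all autosomal M2 cover. Here 48.5% lay within 5 kb and 2.30% beyond 50 kb, against 88.25% and 0.016% over the autosomes. The sparse cover of the windows fixes part of this contrast.

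The domains in low windows were mostly single grid bins. The windows were touched by 5355 P14 domains, 2.60% of those on the autosomes, and by 1535 M2 domains, 0.774%. Single bins of 1 kb made up 82.9% of these P14 domains, against 46.6% of all autosomal P14 domains. Among the M2 domains they made up 55.6%, against 24.4%. Domains of 3 kb or more were 3.44% at P14 and 10.4% at M2, against 29.5% and 42.3% over the autosomes. A window limited to 5 kb of cover cannot contain a long domain, so part of this difference follows from the rule.

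The number of single bins is bound by the limit too. P14 had on average 2.26 domains of 1 kb per low window, against 4.01 per autosomal window. M2 had 0.435 per low window, against 2.02. The ratio of P14 to M2 was 5.20 in the low windows and 1.98 over all windows. Single bins hold most of the P14 cover that the rule limits, so this ratio is not independent of the selected cover. The P14 to M2 ratio of covered length was lower, at 2.73. Single bins were also a smaller part of the M2 domains (55.6%) than of the P14 domains (82.9%). Nothing is read from the ratio of single bins. No low window held more than 5 domains of a list, and the median number was 3 for P14 and 1 for M2. Mean domain length was 1.23 kb in the P14 list and 1.68 kb in the M2 list, against 2.63 kb and 3.50 kb over the autosomes. When domains of 1 kb were left out of both lists, 2576 windows met the rule, and the ratio of M2 to P14 covered length was 0.646 in them. The height and the significance of single domains are not given in the lists, so the strength of these isolated sites was not tested.

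Few domains reached out of the low windows. The edge of a low window, or of a run of them, was crossed by 62 P14 domains (1.16%) and by 62 M2 domains (4.04%). Domains of 1 kb, 82.9% at P14 and 55.6% at M2, cannot cross an edge on the 1 kb grid. The low shares and their difference thus follow in part from domain length. The share of domains crossing edges over all autosomal windows was not counted. The longest measured 13 kb at P14 and 15 kb at M2.

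**Figure D3:**
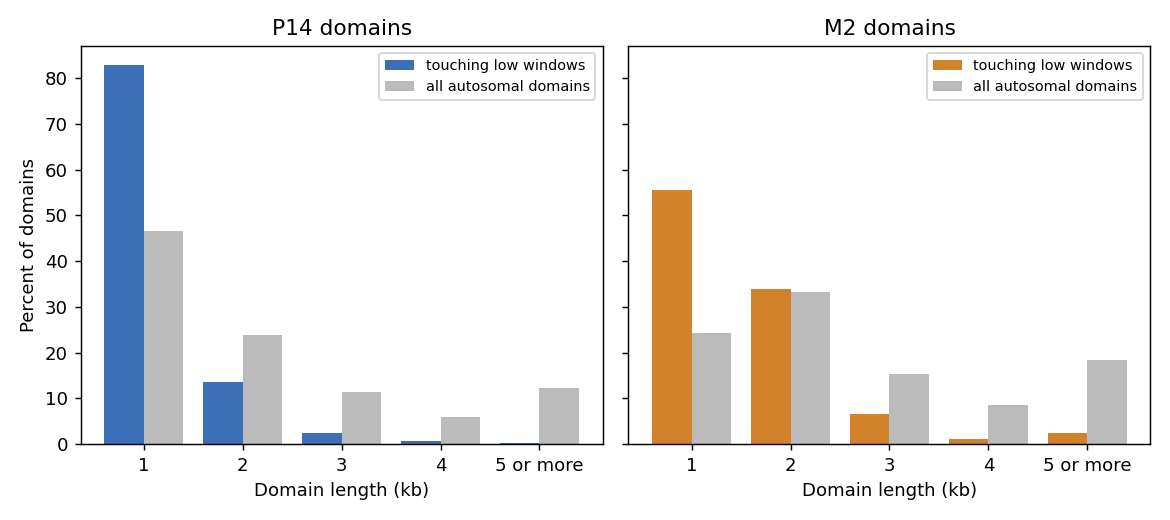
Lengths of the domains that touch low windows (coloured bars) and of all autosomal domains (grey bars), as percent of the domains of the P14 list (left) and the M2 list (right). Domains of 1 kb make up 82.9% at P14 and 55.6% at M2 in low windows, and 46.6% and 24.4% over the autosomes.

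Between these sites lay long unmarked stretches. The longest stretch free of both lists inside a low window measured 49 kb in the median, with a lowest value of 19 kb and a highest of 99 kb. For M2 alone the median was 99 kb, and 94.2% of low windows held 50 kb or more without an M2 domain. For P14 alone it was 53 kb, and 58.3% held 50 kb or more. The rule limits the cover of both lists, and 981 low windows had no M2 domain. Long free stretches thus follow largely from the selection. The same lengths were not counted over all autosomal windows, so nothing is read from them. In 70 low windows (3.56%) at least 90 kb was free of both lists, and 28 were reached by a stretch of 150 kb or more free of both. Missing sequence in such windows cannot be told apart from unmarked sequence. Without those 28 windows the ratio of covered length was 0.367.

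Stretches without M2 domains often ran well beyond 1 window. On the autosomes 548 of them measured 200 kb or more, and 457 of these reached a low window, of which 136 were 300 kb or longer. The corresponding counts for P14 were 13, 5 and 3. A stretch of 200 kb holds at least 1 whole window without domains of that list. For M2, 981 of the 1548 windows with P14 domains only were low windows. That most M2-free stretches reached a low window thus follows largely from the rule. Sequence was present in most of the M2-free stretches, because P14 domains were scattered through them. In 437 of the 457, P14 domains left no more than 150 kb free at a time, and P14 covered 4.74% in the median.

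The longest of these 437, chosen after their values were seen, was chr8:116990001-117642000. It ran for 652 kb without an M2 domain, although P14 domains covered 48 kb of it (7.36%) and left no more than 53 kb between them. The next, chr6:143770001-144389000, measured 619 kb with 29 kb covered at P14, chr16:23944001-24557000 measured 613 kb with 35 kb, and chr18:39125001-39729000 measured 604 kb with 46 kb. On chromosome 8 there were also chr8:49334001-49927000, of 593 kb with 31 kb at P14, and chr8:129575001-130160000, of 585 kb with 51 kb. Low windows made up 300 kb of each of the latter pair. The remaining length lay in windows where P14 exceeded 5% or that were only partly free of M2 domains. These stretches were chosen for the lack of M2 domains and the presence of P14 domains, so that difference is no result.

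Low windows often lay side by side. Of the 1964, 912 (46.4%) had another low window as a direct neighbour, whereas 11.9% of the other windows (2625 of 21973) bordered a low window. They formed 1432 runs. A run of 1 window was the most common, with 1052 cases, followed by 275 runs of 2, 75 of 3, 18 of 4, 9 of 5 and 2 of 6 windows. Runs of 300 kb or more numbered 105 and held 36.2 Mb. With a limit of 3% the share with a low neighbour was 25.9% and the longest run 400 kb, and with a limit of 10% they were 72.8% and 1200 kb. The share was 23.2% (longest run 500 kb) where both lists had to cover at least 1 kb, and 26.4% in windows of 200 kb. Cover in neighbouring windows is measured on the same lists and is not independent.

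The longest run measured 800 kb, at chr9:65600001-66400000. P14 domains covered 25 kb of it (3.13%) and M2 domains 4 kb (0.500%), with 1 kb in common. A stretch of 535 kb inside it, chr9:65792001-66327000, held no M2 domain. The window before it was empty in both lists, and the one after had 7% at P14 and 3% at M2. The low stretch therefore had no marked border on either side.

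The next runs measured 600 kb. The run chr6:120600001-121200000 had 26 kb covered at P14, 7 kb at M2 and 4 kb at both. It was bordered by a window with 15% at P14 and 18% at M2 on one side and by one with 8% and 3% on the other. The run chr13:37600001-38200000 had 20 kb at P14, 5 kb at M2 and 1 kb at both, and its neighbours had 10% and 9% before it and 13% and 0% after it.

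The 9 runs of 500 kb had 13 to 18 kb covered at P14 and 3 to 12 kb at M2. The run chr9:45600001-46100000 had the least P14 cover among them, with 13 kb at P14 and 3 kb at M2 and no kilobase in common. It was also the one set most sharply into marked surroundings, since the windows beside it had 51% at P14 and 69% at M2 before it and 58% and 76% after it. The run chr2:27100001-27600000 lay between windows with 31% and 28% before and 40% and 49% after, and had 16 kb at P14 and 3 kb at M2. The run chr2:134700001-135200000 lay in sparser surroundings. It had 18 kb and 6 kb, and its neighbours had 6% and 11% at P14 and no M2 domain. The run chr4:32400001-32900000 had 18 kb and 6 kb, between windows of at most 9% in either list. The runs chr5:123100001-123600000 and chr5:130300001-130800000 had 17 kb and 16 kb at P14 and 6 kb and 5 kb at M2. The former had 12% and 3% before it and 6% and 2% after it, and the latter 9% and 2% before it and 28% and 33% after it. The run chr10:27900001-28400000 had 17 kb and 9 kb, with 9% and 0% before it and 11% and 21% after it. The run chr10:127400001-127900000 had 14 kb and 4 kb, with 6% and 0% before it and 11% and 2% after it. The most M2 cover was in chr13:75400001-75900000, with 18 kb at P14 and 12 kb at M2, and with 12% and 19% before it and 12% and 1% after it. P14 exceeded M2 in all 12 runs of 500 kb or more. These runs are made of windows selected on both values, so nothing is read from that order.

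Around the runs, cover rose over the first few windows and M2 rose further than P14. At the 2832 positions directly beside a run that held a domain, P14 cover averaged 16.7% and M2 cover 15.8%, for a ratio of 0.947. A window with a run on each side was counted once for each run. These neighbours exceed 5% in at least one list by construction. At 200 kb the means were 21.8% and 23.3%, at 300 kb 23.2% and 26.0%, and at 500 kb 24.5% and 28.1%. At 1000 kb they were 25.1% and 30.03%, a ratio of 1.20, both somewhat above the 22.6% and 29.0% of all windows. The order of the lists turned between the first and the second neighbour. Cover inside the runs is limited by the rule, and over all windows M2 is higher. Cover passed the mean of all windows by 300 kb at P14 (23.2%) and by 600 kb at M2 (29.1%), and stayed above it. The larger rise of M2 and the turn can follow in part from the rule and the general levels, and support nothing by themselves. Windows at 200 kb from a run were themselves low in 14.8% of cases and those at 1000 kb in 9.14%, against 8.2% overall.

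**Figure D4:**
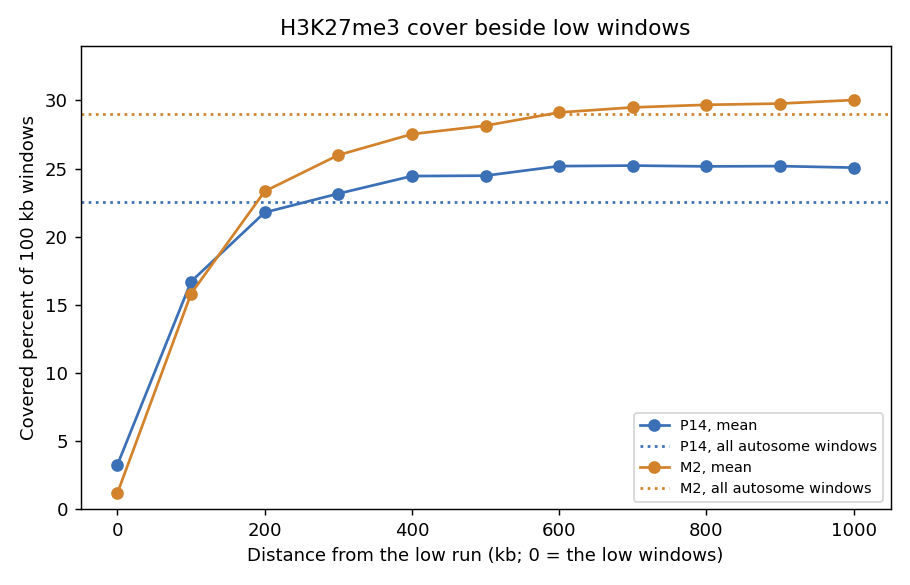
Mean covered percent of 100 kb windows at increasing distance from runs of low windows, for P14 and M2, with dotted lines at the mean of all autosomal windows. M2 starts at 1.20% below P14 at 3.27%, lies close to P14 at the first neighbour (15.8% and 16.7%) and above it from 200 kb (23.3% and 21.8%).

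Inside the 1052 isolated low windows, those with no low neighbour, the cover was higher near the edges. The first and last 10 kb of the windows had 3.75% and 3.92% at P14 and 2.24% and 1.93% at M2. The 10 kb on either side of the middle had 3.01% and 2.92% at P14 and 0.922% and 0.989% at M2. These windows were chosen for neighbours that are not low, so part of this difference can follow from the selection. In the 152 windows with low neighbours on both sides, M2 cover was 0.658% in the first 10 kb and 1.84% in the last, and over all pieces of 10 kb it ran from 0.592% to 1.84%. P14 cover ran from 1.71% to 3.82% over the same pieces.

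Direct borders between a low window and a densely marked one, here a window with 50% or more in both lists, were found 87 times and involved 85 low windows (4.33%). Such borders were scarce. Of the 2832 positions directly beside a run 87 were densely marked, against 360 of 2822 at 1000 kb. Over all autosomal windows 9.86% were densely marked. The sharpest, chosen after their values were seen, was on chromosome 13. There chr13:45000001-45100000 had 5% at P14 and 1% at M2, and the next window had 95% at both ages. On chromosome 4, chr4:129500001-129600000 had 3% in both lists beside a window with 87% in both. On chromosome 18, chr18:77300001-77400000 had 3% at P14 and 2% at M2 beside a window with 78% and 89%. On chromosome 11, chr11:94400001-94500000 had 5% and 4% beside a window with 79% at P14 and 86% at M2. On chromosome 5, chr5:113600001-113700000 had 5% and 4% beside a window with 79% and 85%. On chromosome 15, chr15:88500001-88600000 had 3% in both lists beside a window with 74% and 90%. Both sides of each border were chosen by their cover at both ages, so the likeness between the ages follows from the selection.

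Low windows occurred on every autosome. Their share of windows ran from 6.48% on chromosome 14, 6.52% on chromosome 1 and 6.82% on chromosome 7 to 10.2% on chromosome 19 and 10.6% on chromosome 11. The share did not follow how much of a chromosome was marked. Chromosome 11 had the highest share of low windows and, at P14, the highest cover among autosomes (27.4%), with 17.6% of its windows densely marked. Chromosome 10 had the lowest cover (18.0% at P14), and 8.998% of its windows were low. Chromosome 7 combined few low windows with many dense ones (15.9%). Across the 19 chromosomes the share of low windows and the P14 cover had a Pearson r of 0.166 and a Spearman rho of 0.067, given as a description of chromosomes that share the same lists.

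P14 exceeded M2 in covered length in the low windows of each of the 19 autosomes. The rule limits both lengths and the lists are the same throughout, so the autosomes are not separate support for this order. The ratio of M2 to P14 ran from 0.291 on chromosome 6 and 0.300 on chromosome 5 to 0.468 on chromosome 7 and 0.492 on chromosome 3. Low windows without an M2 domain were least common on chromosome 3 (36.9%) and most common on chromosome 8 (62.2%). Each chromosome span was also divided into 10 equal parts, counted from the centromeric end of the acrocentric mouse chromosomes. The share of low windows was 7.09% in the first part, 6.66% in the third, 10.4% in the ninth and 8.27% in the last. The ninth part was also more covered than the first, with 26.3% against 19.6% at P14 and 32.4% against 26.5% at M2.

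**Figure D5:**
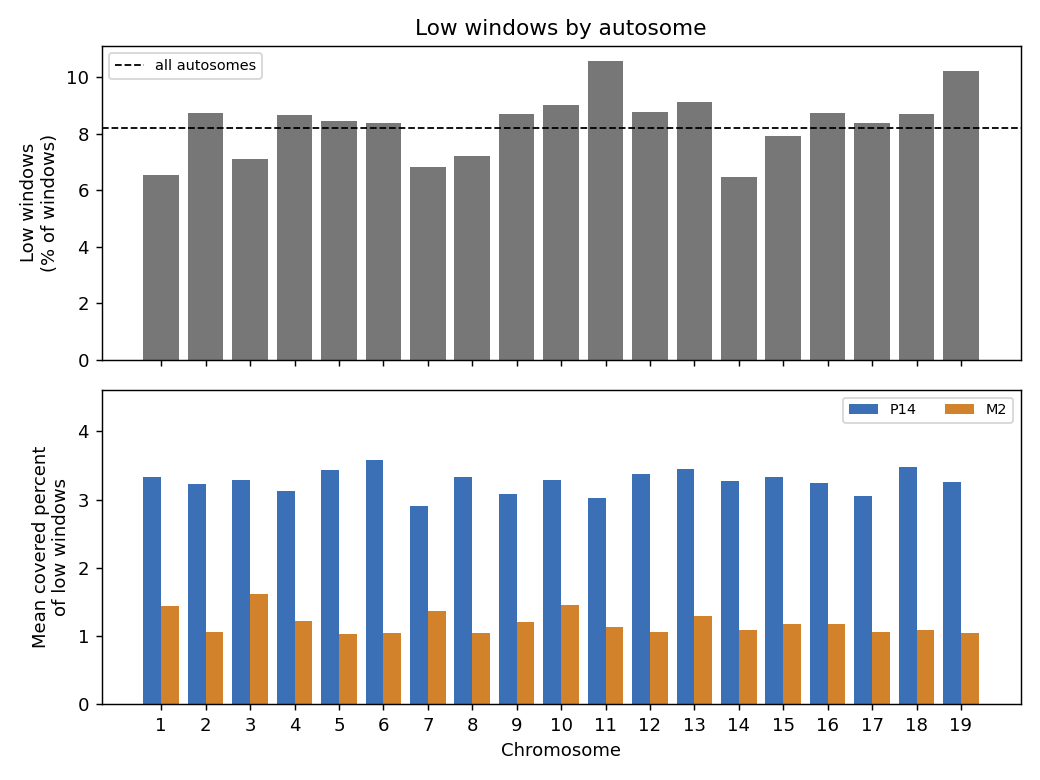
Top, low windows as percent of the windows of each autosome, with a dashed line at the share over all autosomes (8.2%), and bottom, mean covered percent of the low windows at P14 and M2. Shares run from 6.48% to 10.6%, and the P14 bar is higher than the M2 bar on each autosome, with both limited by the rule.

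Chromosome X had almost no such windows. The same rule was met by 2 of its 1635 windows (0.122%), against 8.2% on the autosomes, and only 3 X windows had 5% or less at P14. Domains covered 37% of the median X window at P14 and 83% at M2. The 2 low windows were chrX:32200001-32300000, with 2% at P14 and 1% at M2, and chrX:100700001-100800000, with 3% and 1%. The first lay between windows with 19% and 16% before it and 37% and 82% after it, and the second between windows with 43% and 51% before it and 46% and 53% after it. The sexes of the M2 samples are unknown and both sexes were pooled at P14, so the levels on X cannot be told apart from the sexes sampled.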

How the data were processed

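The authors deposited 1 list of H3K27me3 domains for each age. Per the submitters' processing notes, STAR 2.4.2a, bedtools and the mm9 build were used, without roles. How domains were called, at which threshold and against which input is not given in the sources used here. Deposited scores were 0 throughout, and the other columns used from the authors were starts and ends, all multiples of 1000 bp. Read depth is unknown, so no interval that needs it is given.

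Cover was counted on the 1 kb grid with Python 3.11.15 and numpy 2.4.6, in windows of 100 kb starting at whole multiples of that size and lying wholly between the first and last domain of either list. Coordinates are mm9, counted from 1. The window code was tested on simulated lists and found 1426 of 1426 planted windows among 5700. Exact 95% binomial limits (scipy 1.17.1), which cover counting error only and treat neighbouring kilobases as independent, set which alternatives count as a change. Figures were drawn with matplotlib 3.10.9.

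The windows, the comparisons and the alternatives were chosen with earlier results of these data known. Regions named were the longest runs (10, with 2 tied runs added), the windows with the highest sum and with the largest differences, the 10 longest shared stretches, and each autosome. Borders and M2-free stretches were added after their values were seen. The planned gene lists and sequence features were left out, since the gene tables at hand are on another build.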

Additional observations from a re-analysis of the deposited data

How the results depend on the processing

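P14 covered more than M2 in the low windows under all 11 alternatives, but the sizes moved. Each alternative still limits the cover of both lists, so this direction describes the selection and supports nothing by itself. The order below is low windows as a share of autosomal windows, ratio of M2 to P14 covered length, share of P14 length also covered at M2, and share of low windows with a low neighbour. A limit of 3% gave 3.87%, 0.301, 3.16% and 25.9%, with a longest run of 400 kb, and a limit of 10% gave 18.4%, 0.501, 12.1% and 72.8%. Cover of 1 kb in both lists gave 3.98%, 0.678, 11.1% and 23.2%, with a longest run of 500 kb. It removes the windows without M2 domains by construction. A minimum of 2 kb in one list gave 7.46% and 42.2% for the first and last. Windows of 50 kb gave 8.65%, 0.311 and 2.75%, with a longest run of 450 kb, and windows of 200 kb gave 4.26%, 0.412, 8.54% and 26.4%. Domains of 2 kb or more gave 11.2%, 0.646, 10.7% and 50.1%. An M2 list shortened to the P14 length by dropping its shortest domains gave 9.09%, 0.185 and 2.98%, which removing short M2 domains gives in part by construction. The grid shifted by 50 kb, joining within 1 kb and leaving out windows reached by 150 kb free of both lists (an alternative added after the data were seen) moved none of the 4 beyond their 95% limits, and over all alternatives 16 of 44 values stayed within them. The longest run has no such limits. No paired analysis was possible because each list is pooled over its replicates, and for the same reason no replicate could be left out.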

Other observations

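On chromosome Y the domains span 27 windows of 100 kb with a domain in either list. The rule for low windows was met by 1 of them, 4 had 5% or less at P14 and 1 had 5% or less at M2. Domains covered 13% of the median Y window at P14 and 16% at M2.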
